A study of Mus musculus with 9 samples.

Results

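The proteins of the mitochondrial ribosome were followed in the peripheral blood of mouse embryos with 0, 1 or 2 copies of the ΔC95 allele of Cbfb. Genes were taken by symbol, Mrpl for the large and Mrps for the small ribosomal subunit followed by a number, from the annotation of the array. Only probe sets (groups of probes against a transcript) naming a single gene were used, and each gene was represented by the probe set with the highest mean over all arrays. This gave 76 of 18193 measured genes, 47 of the large and 29 of the small subunit, with 156 single-gene probe sets among them. Of the 76, 34 had 1 such probe set and 42 had more. Mrpl30 and Mrpl53 had only probe sets shared with another gene and were left out. The members lie on 17 chromosomes, 11 of them on chromosome 11 and 8 on chromosome 17.

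Embryos were wild type (Cbfb+/+), heterozygous (Cbfb+/ΔC95) or homozygous (CbfbΔC95/ΔC95), came from crosses of heterozygous parents on a mixed C57BL6/129SvEv background, and were bled at E12.5. Each RNA sample was made from the pooled blood of 8 to 10 embryos, and 3 Affymetrix whole-genome mouse arrays were hybridized per genotype, 9 in all. CBFβ, the product of Cbfb, pairs with the DNA-binding RUNX proteins to form core binding factor, and the series concerns the C-terminus of its leukemia fusion protein CBFβ-SMMHC; the labels describe the ΔC95 allele no further. Nothing in the labels tells whether arrays of a genotype stand for different pools, so p-values cover the spread between arrays, which may be technical, and the number of arrays limits the precision.

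Mitochondrial ribosomes translate the few membrane proteins of the respiratory chain that mitochondrial DNA encodes. Their RNAs come from mitochondrial DNA, whereas every protein of both subunits is encoded in the nucleus, made in the cytosol and imported. Some of these proteins descend from bacterial ribosomal proteins and others were added in the mitochondrial lineage. Red cell precursors depend on mitochondria for heme synthesis and iron-sulfur clusters, and mature red cells of adult mammals have lost them.

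The embryonic globin genes Hba-x, Hbb-bh1 and Hbb-y had mean log2 values of 14.32, 14.39 and 14.19, and these genes mark the primitive red cells of blood at this stage. Wild-type arrays gave a mean Cbfb level of 6.01 ± 0.03, heterozygous arrays 5.77 ± 0.04 and homozygous arrays 5.10 ± 0.16 (log2, SD, n = 3 each). It was lower by a log2 difference of -0.90 in homozygous than in wild-type blood (limma, adjusted p = 3.39e-06), and what the probes cover relative to the altered part of the gene was not tested. Arrays of a genotype correlated at 0.996 to 0.998. Homozygous replicate 1 stood apart for the genes described here. It gave the highest of the 3 homozygous values for 68 of 76 members, against 40% of all genes, and results that rest on it are given with and without it.

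In homozygous blood the mitochondrial ribosomal proteins were higher as a group. Of 76 members, 49 were higher than in wild type and 3 were lower (limma on all probe sets, adjusted p under 0.05), where 10.7% of all genes were higher and 14.9% were lower. The median log2 difference was 0.32 (a 1.25-fold ratio), with quartiles of 0.08 and 0.55 and a range of -0.44 to 1.17, against 0.05 over all genes. The 3 homozygous arrays lay above all 3 wild-type arrays for 55 members and below them for 4, against 20.9% and 18.3% of all genes. Without homozygous replicate 1, 45 members were higher and 3 lower, and the median was 0.30.

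Those directions are relative to the other transcripts on the arrays. The deposited distributions of the arrays were close to one another but not identical, with medians of 4.27 to 4.30. The poly-A spike-ins, bacterial transcripts of known amount added to the RNA, differed by 1.58 between homozygous and wild-type arrays and by 0.88 between heterozygous and wild-type arrays. Among arrays sharing a genotype their SD was only 0.0009 to 0.024, so the spike-in level moved with genotype. Any difference in RNA amount or handling that moved with it cannot be separated from genotype here. The p-values do not cover such a difference, and its part in the results was not tested. After these poly-A differences are subtracted, 0 of 76 members lie above 0 in either comparison. The same holds in homozygous minus heterozygous, where the spike-ins differed by 0.70. In homozygous minus wild type no gene could lie above 0, as the largest difference over all genes was 1.54. For the other comparisons the share of all genes was not counted. The hybridization spike-ins, added after labelling, differed by 0.28, -0.00 and 0.28 in homozygous minus wild type, heterozygous minus wild type and homozygous minus heterozygous. After these are subtracted 43, 59 and 17 of 76 members lie above 0. Before subtraction the upper quartile over all genes was 0.14, 0.08 and 0.11. The share of all genes above 0 after subtraction was not counted. In pooled blood, moreover, fewer cells of a type and less RNA per cell cannot be told apart. The makeup of the samples moved with genotype. All 11 macrophage markers measured were lower in homozygous blood, and their summed linear signal was 2212 to 2247 in wild-type, 1657 to 1688 in heterozygous and 323.7 to 328.9 in homozygous arrays. All 8 megakaryocyte markers were lower too, with sums of 1292 to 1317, 1611 to 1675 and 421.8 to 474.1. Of 7 embryonic red cell markers 1 was higher and 1 lower, with sums of 82620 to 82950, 81650 to 82870 and 83650 to 84110. Most of these sums comes from the embryonic globins, near the top of the scale. The brightest marker had a mean of 14.39, where the highest deposited value was 14.56. Whether such signals can still follow the amount of RNA was not tested. Of 7 liver markers 5 were higher and none lower, with sums of 635.4 to 644.0, 509.2 to 529.9 and 1024 to 1113. Among 8 neutrophil markers 3 were lower, among 8 of mesenchyme 5 were lower and 1 higher, among 8 neural ones 2 were higher, and among 8 of endothelium 1 was lower. Values on this scale do not reach 0. The part of these shifts in the results on ribosomal proteins was not tested.

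**Figure D1:**
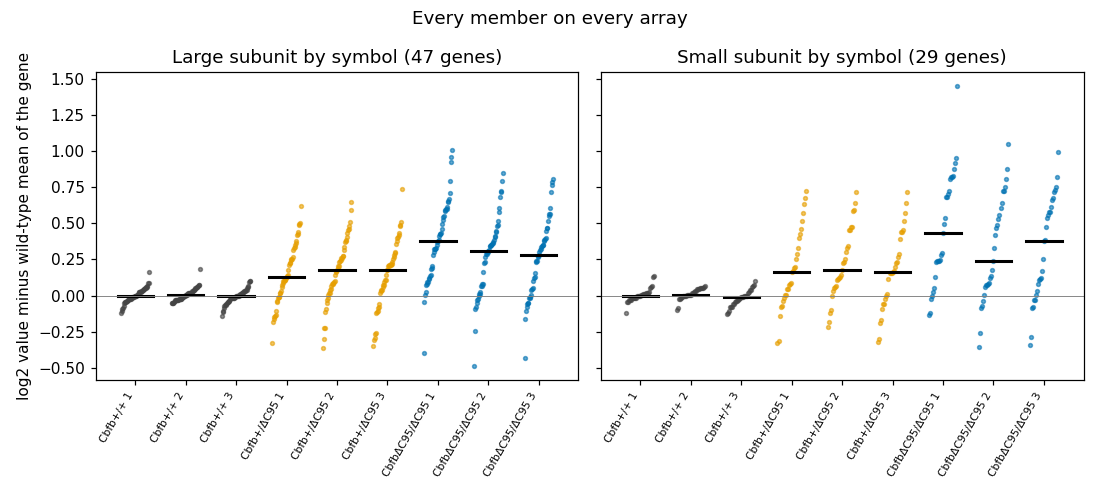
Each point is a mitochondrial ribosomal protein gene in 1 array, as its log2 value minus its wild-type mean (y axis). The 9 arrays are grouped by genotype (x axis), with 47 large and 29 small subunit genes by symbol in separate panels. Bars are the medians of each subunit. In heterozygous arrays the medians were 0.13 to 0.18 (large) and 0.16 to 0.18 (small). In homozygous arrays they were 0.28 to 0.38 (large) and 0.24 to 0.44 (small), with homozygous replicate 1 highest in both.

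The windows from 250 bases before to 50 bases after each RefSeq start (GRCm38.p6) were searched for short motifs on both strands. Windows were found for 67 of 76 members (73 windows), and for 14368 measured genes (18009 windows). A motif of NRF1 (GCGC, any base, then TGCGC), the nuclear factor known for mitochondrial genes, lay in 16.4% of the windows of members and 7.45% of those of all measured genes. A motif of the ETS factor GABP (CCGGAAGT) lay in 16.4% against 5.86%. A motif of YY1 (AANATGGC) lay in 28.8% against 6.75%. The E-box CACGTG lay in 9.59% against 8.74%, the RUNX motif TGTGGT in 12.3% against 13.7%, and the TATA box TATAAA in 6.85% against 9.76%. Median GC content was 58.7% and 58.3%. NRF1, GABP and YY1 motifs lay in 10.6%, 12.8% and 25.5% of 47 windows of members that were higher in homozygous blood, and in 26.9%, 23.1% and 34.6% of 26 windows of the others, differences that were not tested. A match to these letters is a description and not a measured binding site. Mrpl12, which was higher in homozygous blood, and Mrps21, which was lower, carry an identical NRF1 motif in the 250 bases before their starts. Both stretches are shown to set these unlike responses beside their sequence, Mrpl12 at chr11:120484387-120484636 on the plus strand and Mrps21 at chr3:95871515-95871764 on the minus strand, with the motif in capitals.
Mrpl12: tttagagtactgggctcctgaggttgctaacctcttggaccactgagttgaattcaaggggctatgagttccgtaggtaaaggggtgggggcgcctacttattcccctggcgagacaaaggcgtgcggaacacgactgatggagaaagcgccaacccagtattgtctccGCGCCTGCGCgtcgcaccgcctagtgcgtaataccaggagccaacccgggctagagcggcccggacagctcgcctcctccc
Mrps21: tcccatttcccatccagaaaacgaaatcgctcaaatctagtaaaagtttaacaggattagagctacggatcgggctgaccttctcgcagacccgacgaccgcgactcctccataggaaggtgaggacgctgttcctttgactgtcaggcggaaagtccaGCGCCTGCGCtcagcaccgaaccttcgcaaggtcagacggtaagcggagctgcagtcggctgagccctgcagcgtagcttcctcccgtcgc

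Motifs of members that rose and of members that fell are likewise shown as 30-base stretches, with the motif in capitals. The YY1 motif at or just after the start is shown from Mrpl35 (chr6:71823743-71823772, minus strand), Mrps18a (chr17:46111004-46111033, plus strand), Mrps7 (chr11:115604147-115604176, plus strand) and Mrpl37 (chr4:107066822-107066851, minus strand), all higher in homozygous blood, and from Mrpl27 (chr11:94653788-94653817, plus strand), which was lower.
Mrpl35: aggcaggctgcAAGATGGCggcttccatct
Mrps18a: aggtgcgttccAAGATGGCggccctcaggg
Mrps7: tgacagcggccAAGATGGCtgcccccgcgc
Mrpl37: ctgcacgggcaAAGATGGCggcgtccaggt
Mrpl27: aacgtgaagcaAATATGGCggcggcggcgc

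The GABP motif is shown from Mrpl52 (chr14:54426899-54426928, plus strand, where it reads on the opposite strand), which was higher, and from Mrps22 (chr9:98601672-98601701, minus strand) and Mrpl27 (chr11:94653725-94653754, plus strand), which were lower. Among named members it also lay in the windows of Mrps26, Mrpl51 and Mrps18c, not shown, which were higher.
Mrpl52: gggccacgcccACTTCCGGttcccttgctc
Mrps22: aacctctcgagCCGGAAGTtgctctatcga
Mrpl27: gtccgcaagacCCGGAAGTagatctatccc

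In the small subunit, which holds the decoding centre, Mrps18b differed most, and of all 76 members it had the largest difference. Mrps18b, one of several mitochondrial paralogs of a single bacterial protein, had values of 6.26, 6.11 and 6.01 in wild-type, 6.80, 6.77 and 6.77 in heterozygous and 7.58, 7.17 and 7.12 in homozygous arrays. The 3 genotypes did not overlap, and homozygous replicate 1 was the highest array. Mrps18b was 2.24-fold higher in homozygous than in wild-type blood (log2 1.17, SE 0.11, limma adjusted p = 7.2e-06), and the log2 difference without replicate 1 was 1.02. Mrps34, a mitochondria-specific protein of the small subunit, had 7.46, 7.42 and 7.36 in wild-type, 8.13 in each heterozygous and 8.33, 8.29 and 8.24 in homozygous arrays. The wild-type arrays lay well below the rest, and the difference was 0.87 (SE 0.06, limma adjusted p = 3.89e-07). A probe set that Mrps34 shares with its neighbour Nme3 differed by 0.15 and did not pass (limma adjusted p = 0.103).

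Members with a bacterial counterpart followed. Mrps7, which binds the head of the small subunit RNA, had 7.86, 7.73 and 7.60 in wild-type, 8.06, 8.07 and 8.02 in heterozygous and 8.56, 8.45 and 8.46 in homozygous arrays. No genotype overlapped another, and the homozygous difference was 0.76 (SE 0.07, limma adjusted p = 6.76e-06). Mrps2 had 6.19, 6.28 and 6.20 in wild-type, 6.80, 6.82 and 6.80 in heterozygous and 7.03, 6.98 and 6.94 in homozygous arrays. Here too the wild-type arrays stood below both mutant groups, and the difference was 0.76 (SE 0.06, limma adjusted p = 1.09e-06). Mrps17 differed by 0.74, Mrps10 by 0.67 and Mrps28 by 0.61. Mrps26 and Mrps35, which are mitochondria-specific, differed by 0.61 and 0.55, and Mrps14 and Mrps18c by 0.46 and 0.31. All 7 passed the test. With the mean of all single-gene probe sets of a gene, dim ones included, the differences were 0.48 for Mrps2, 0.36 for Mrps10, 0.29 for Mrps26 and 0.15 for Mrps14. Mrps12, the counterpart of the bacterial protein at the decoding centre, differed by 0.59 and passed as well (limma adjusted p = 3.27e-05).

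In the large subunit, which holds the peptidyl transferase centre, Mrpl52 differed most. Mrpl52, a mitochondria-specific protein, had values of 7.87, 8.01 and 7.99 in wild-type, 8.58, 8.60 and 8.69 in heterozygous and 8.96, 8.81 and 8.76 in homozygous arrays, with no overlap between genotypes. It was 1.85-fold higher in homozygous blood (log2 0.89, SE 0.07, limma adjusted p = 1.96e-06), and the other bright probe sets of this gene both differed by 0.70. Mrpl52 had 4 single-gene probe sets, and its lowest difference among the alternative settings was 0.61. Mrpl35 had 7.93, 7.90 and 7.79 in wild-type, 8.38, 8.46 and 8.38 in heterozygous and 8.83, 8.66 and 8.64 in homozygous arrays. Again the genotypes were fully apart, and the difference was 0.84 (SE 0.07, limma adjusted p = 2.59e-06). Mrpl12, the stalk protein that contacts the elongation factors, had 7.62, 7.67 and 7.78 in wild-type, 8.11, 8.10 and 8.12 in heterozygous and 8.61, 8.41 and 8.48 in homozygous arrays. Each genotype occupied its own range, and the difference was 0.81 (SE 0.07, limma adjusted p = 3.15e-06). Mrpl37, mitochondria-specific, differed by 0.71, and Mrpl11, at the base of the same stalk, by 0.63. Mrpl22, whose bacterial counterpart lines the exit tunnel, differed by 0.36, and Mrpl50 by 0.38, and all 4 passed. With the mean of all probe sets of a gene Mrpl35 differed by 0.34, and Mrpl50 differed by 0.074 and lost its call (limma adjusted p = 0.318).

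Symbols and structure disagree for a few members. Mrps18a carries a small subunit symbol but sits in the large subunit, where it differed by 0.84 (SE 0.06, limma adjusted p = 1.72e-06), with values of 7.37, 7.41 and 7.32 in wild-type, 7.83, 7.84 and 7.76 in heterozygous and 8.32, 8.17 and 8.12 in homozygous arrays. No array of a genotype fell within another genotype's range. Mrps30, likewise of the large subunit, differed by 0.13 and did not pass (limma adjusted p = 0.187). Mrps36, later assigned to a metabolic enzyme complex rather than the ribosome, differed by 0.08 (limma adjusted p = 0.491). By symbol, 32 of 47 members of the large subunit were higher and 1 lower with a median of 0.32, and 17 of 29 of the small subunit were higher and 2 lower with a median of 0.31. By structure the counts were 33 higher and 1 lower of 49 (median 0.32) and 16 higher and 2 lower of 26 (median 0.36). Of 45 members with a bacterial counterpart 29 were higher and 2 lower (median 0.32), and of 29 specific to mitochondria 19 were higher and 1 lower (median 0.29). Of the Mrps18 paralogs, Mrps18c was counted with the bacterial counterparts and Mrps18b with those specific to mitochondria. Mrps18a and Mrps36 were left out of both. Neither grouping was tested for a difference.

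**Figure D2:**
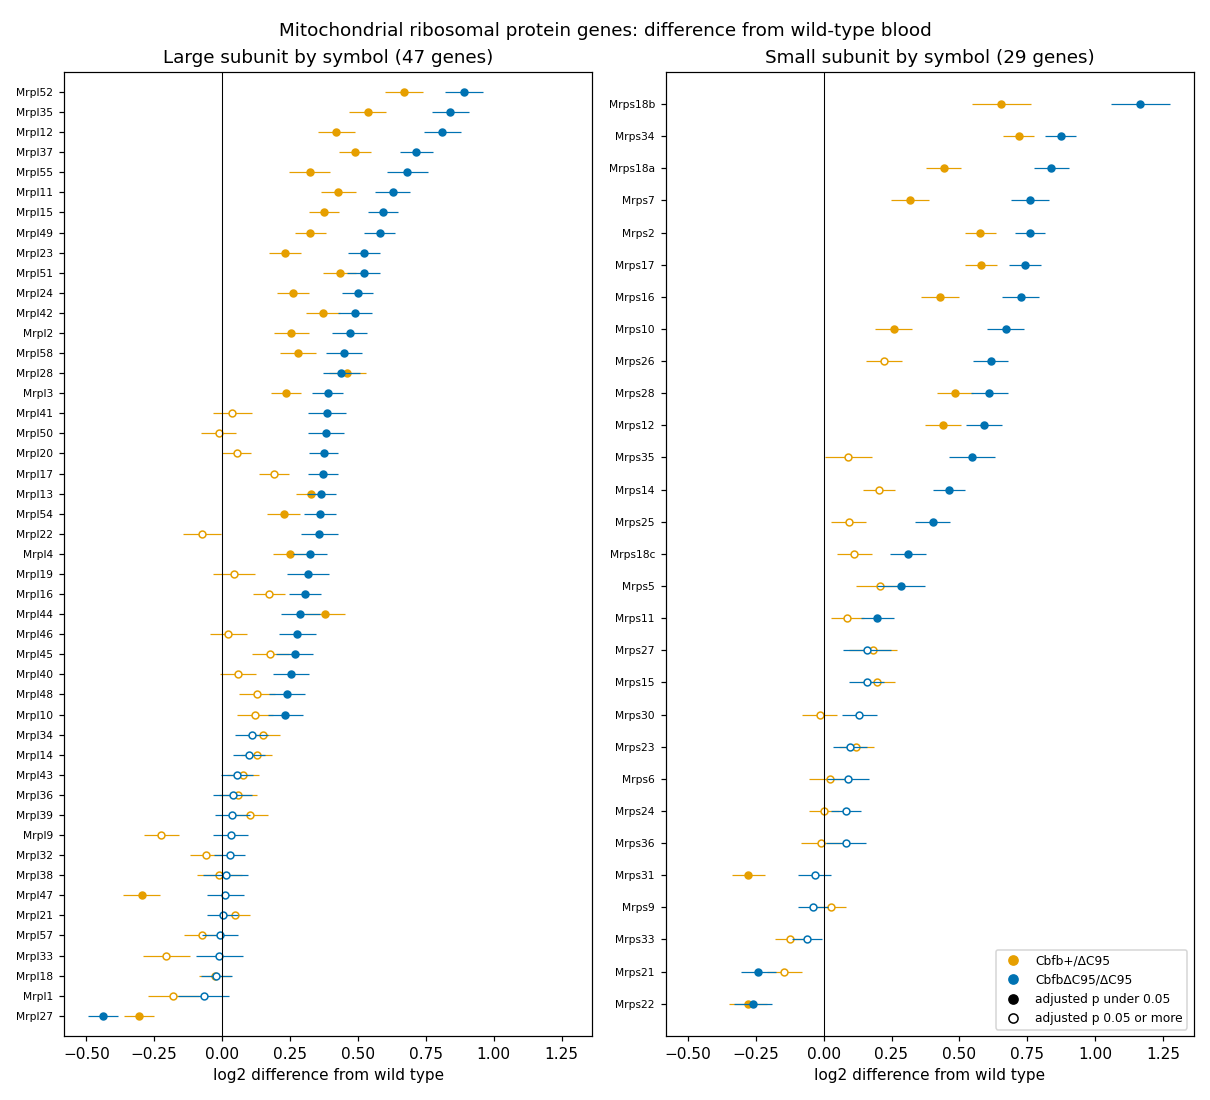
Each gene of the mitochondrial ribosome is placed by its log2 difference from wild type (x axis) in heterozygous and homozygous blood, with the standard error as a bar and filled points where limma's adjusted p was under 0.05. The homozygous differences run from -0.44 (Mrpl27) to 1.17 (Mrps18b), and 49 of 76 are filled on the right against 3 on the left.

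Members chosen for their high level, the 3 brightest per subunit, did not share a response. Mrps14 and Mrps18c, given above, were higher by 0.46 and 0.31. Mrpl51 differed by 0.52 and Mrpl20 by 0.37, and both passed, Mrpl51 with 0.26 as the mean of its probe sets. Mrpl57 had 10.18, 10.24 and 10.20 in wild-type, 10.10, 10.16 and 10.15 in heterozygous and 10.33, 10.12 and 10.15 in homozygous arrays. The homozygous range overlapped both others, while the heterozygous arrays lay below the wild-type ones (difference -0.07, limma adjusted p = 0.643). The homozygous difference was -0.01 (limma adjusted p = 0.954). Mrps24 differed by 0.08 and did not pass (limma adjusted p = 0.34), while its other probe set differed by 0.39 and passed (limma adjusted p = 0.00158).

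The 3 members that were lower were Mrpl27, Mrps22 and Mrps21. Mrpl27, whose bacterial counterpart reaches into the peptidyl transferase centre, had 7.89, 7.84 and 7.84 in wild-type, 7.53, 7.56 and 7.56 in heterozygous and 7.46, 7.37 and 7.43 in homozygous arrays. It stood lowest in homozygous and highest in wild-type blood with no overlap, and fell by 0.44 (log2, SE 0.05, limma adjusted p = 7.76e-05). Leaving out any array kept its call, and with the mean of its probe sets the difference was -0.25. Mrps22, a mitochondria-specific protein, had 7.24, 7.32 and 7.28 in wild-type, 6.95, 7.09 and 6.96 in heterozygous and 7.15, 6.92 and 6.99 in homozygous arrays. Both mutant groups lay below wild type and overlapped each other, and it fell by 0.26 in homozygous blood (log2, limma adjusted p = 0.0213). This call was lost without wild-type replicate 2 or 3 or homozygous replicate 2 or 3 (limma adjusted p of 0.0582 to 0.0821), and with quantile normalization (-0.16, limma adjusted p = 0.0877). Mrps21 had 8.58, 8.62 and 8.58 in wild-type, 8.45, 8.47 and 8.42 in heterozygous and 8.47, 8.33 and 8.25 in homozygous arrays. Every mutant array was below every wild-type array, and it fell by 0.24 in homozygous blood (log2, limma adjusted p = 0.0199). The call was lost without wild-type replicate 2 or homozygous replicate 2 or 3 (limma adjusted p of 0.0533 to 0.0743), and with quantile normalization (-0.14, limma adjusted p = 0.0776). With the mean of all its probe sets its difference was 0.022. A second Mrps21 probe set of low signal, with a wild-type mean of 2.70, differed by 0.28 in the opposite direction (limma adjusted p = 0.0111). Mrpl50 also had a dim second probe set, at 3.72, that was opposite to the bright one, at -0.23 (limma adjusted p = 0.041). Across all 42 members with further probe sets, 19 of 80 other sets were called in the same direction, 2 in the opposite one, and 35 were not called where the bright one was.

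**Figure D3:**
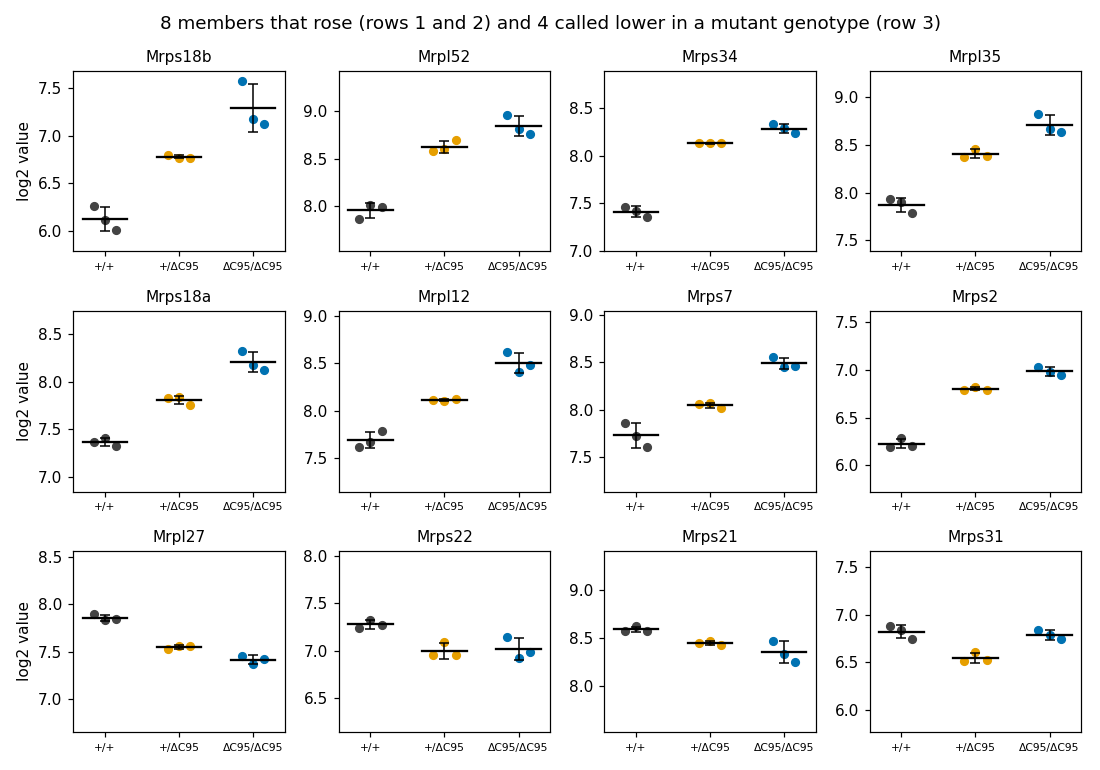
Log2 values of 12 mitochondrial ribosomal protein genes in each array (points), with the mean and SD of each genotype (3 arrays), are plotted by genotype. The upper genes climb from wild type to homozygous, as Mrps18b does from 6.13 to 7.29, whereas Mrpl27 falls from 7.86 to 7.42 and Mrps31 is lowest in heterozygous blood.

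Heterozygous blood showed smaller differences in the same general direction. Of 76 members 30 were higher than in wild type and 4 lower, where 4.79% of all genes were higher and 7.04% were lower (limma, adjusted p under 0.05). The median log2 difference was 0.16, against 0.01 over all genes. For 44 members the 3 heterozygous arrays lay above all wild-type arrays and for 10 below, against 14.2% and 15.7% of all genes. By symbol the counts were 20 higher and 2 lower in the large subunit (median 0.15) and 10 higher and 2 lower in the small subunit (median 0.18). Both mutant comparisons use the same wild-type arrays, so they are not independent. In this comparison 5 of 11 macrophage and 4 of 8 neutrophil markers were lower and 1 of 7 liver markers was lower. Higher were 2 of 8 megakaryocyte, 3 of 8 neural, 3 of 8 mesenchyme and 1 of 8 endothelium markers, and their part in these counts was not tested.

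Mrps34 differed most, by 0.72 (SE 0.06, limma adjusted p = 1.9e-05), although the probe set it shares with Nme3 differed by -0.11 and did not pass (limma adjusted p = 0.375). Mrpl52 differed by 0.67, Mrps18b by 0.65, Mrps2 and Mrps17 by 0.58 each, and Mrpl35 by 0.54. Mrpl37 differed by 0.49 and Mrps28 by 0.48, and Mrpl44, with a ribonuclease-like fold, by 0.38, all of them past the threshold. With the mean of all probe sets of a gene Mrpl52 differed by 0.39 and Mrps2 by 0.31, and Mrpl35 differed by 0.21 and lost its call (limma adjusted p = 0.0572). Mrps10 differed by 0.26 (limma adjusted p = 0.0379) and lost its call without any one of the 6 wild-type and heterozygous arrays (limma adjusted p of 0.076 to 0.128). It also lost it with array medians set equal (limma adjusted p = 0.0566), with reference genes set equal (limma adjusted p = 0.0822) and with the mean of its probe sets (0.13, limma adjusted p = 0.109). Mrps7 differed by 0.32 (limma adjusted p = 0.0136) and lost its call without heterozygous replicate 1 or 2 or wild-type replicate 2 or 3 (limma adjusted p of 0.0504 to 0.0625). Mrps26, Mrps14 and Mrps35 differed by 0.22, 0.20 and 0.09 and did not pass.

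Among the 4 that were lower in heterozygous blood, Mrpl27 fell by 0.31 (limma adjusted p = 0.0037). Mrpl47, which lies near the polypeptide exit tunnel, had 6.40, 6.33 and 6.36 in wild-type, 6.18, 6.00 and 6.01 in heterozygous and 6.45, 6.36 and 6.31 in homozygous arrays. The heterozygous arrays stood alone below the other genotypes, which overlapped. It fell by 0.30 against wild type (limma adjusted p = 0.016), a call lost without heterozygous replicate 2 or 3 or wild-type replicate 1 or 3 (limma adjusted p of 0.053 to 0.0727), and the mean of its probe sets gave -0.17. Mrps31, a mitochondria-specific protein, had 6.88, 6.84 and 6.74 in wild-type, 6.51, 6.61 and 6.52 in heterozygous and 6.84, 6.78 and 6.74 in homozygous arrays, the same shape. It fell by 0.28 (limma adjusted p = 0.0142), a call lost without heterozygous replicate 1 or 3 or wild-type replicate 1 or 2 (limma adjusted p of 0.0535 to 0.0661) or with the mean of its probe sets (-0.13, limma adjusted p = 0.0737). Mrps22 fell by 0.28 (limma adjusted p = 0.0305), lost without any wild-type array or heterozygous replicate 1 or 3 (limma adjusted p of 0.0621 to 0.118). The count of members lower than wild type was accordingly 1 without wild-type replicate 1 or heterozygous replicate 3, and 5 without homozygous replicate 1.

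Homozygous blood was also compared with heterozygous blood directly. Of 76 members 26 were higher and 0 lower, where 5.38% of all genes were higher and 10.4% lower (limma, adjusted p under 0.05). At an unadjusted limma p under 0.05 the counts were 42 and 1. At that threshold they were 50 and 3 in homozygous minus wild type and 39 and 8 in heterozygous minus wild type. The shares of all genes at that threshold were not counted. The median difference was 0.15, equal in the large and the small subunit at this precision, against 0.03 over all genes. Without homozygous replicate 1 the count was 21 and the median 0.11. The marker sums given above also differed between these genotypes, and their part was not tested. The mean of heterozygous arrays lay between the other genotype means for 49 members, above both for 12 and below both for 15. Mrps18b was 0.51 higher in homozygous than heterozygous blood (limma adjusted p = 0.00825), Mrps35 0.46, Mrps7 0.44, Mrpl22 0.43 and Mrps10 0.41, and all passed. Mrpl22, which had 6.57, 6.62 and 6.53 in wild-type, 6.56, 6.48 and 6.46 in heterozygous and 7.07, 6.88 and 6.85 in homozygous arrays, stood apart in homozygous blood alone. Mrpl50 followed the same order, with a difference of 0.39 from heterozygous and -0.01 between heterozygous and wild type. With the mean of all probe sets of a gene Mrps10 differed by 0.23 from heterozygous, and Mrpl50 by 0.15 without passing (limma adjusted p = 0.0733). Mrpl47 and Mrps31, low in heterozygous blood, were higher by 0.31 and 0.24 in homozygous blood. The call for Mrps31 was lost without heterozygous replicate 1 or 3 or homozygous replicate 1 (limma adjusted p of 0.0568 to 0.0864). Mrpl37 differed by 0.23 (limma adjusted p = 0.0292) and lost its call without any one of the 6 arrays compared (limma adjusted p of 0.0519 to 0.0871).

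**Figure D4:**
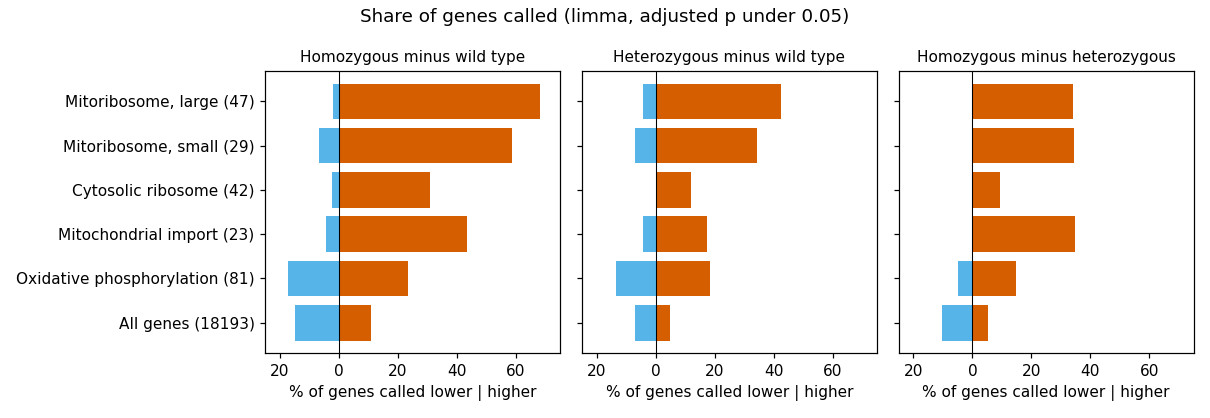
Bars give the percentage of genes called lower and higher (x axis) in the 3 comparisons for the large and small subunits of the mitochondrial ribosome, the cytosolic ribosome, mitochondrial import, respiratory chain subunits and all genes. In homozygous against wild-type blood 68.1% of the large and 58.6% of the small subunit genes are higher, against 10.7% of all genes.

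Other lists of related genes were read in the same way. Of all genes 10.7% were higher and 14.9% lower in homozygous against wild-type blood. These shares were 4.79% and 7.04% in heterozygous against wild-type, and 5.38% and 10.4% in homozygous against heterozygous blood. In homozygous against wild-type blood 13 of 42 cytosolic ribosomal proteins were higher and 1 lower (median 0.06), 10 of 23 genes of mitochondrial protein import were higher and 1 lower (median 0.17), and 19 of 81 nuclear subunits of the respiratory chain were higher and 14 lower (median 0.01). In heterozygous against wild-type blood the counts higher and lower were 5 and 0, 4 and 1, and 15 and 11. In homozygous against heterozygous blood they were 4 and 0, 8 and 0, and 12 and 4. The differences between these lists and the mitochondrial ribosome were not tested.

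Proteins of the mitochondrial ribosome that bear other symbols were 3 higher and 0 lower of 4 in homozygous blood. These were Gadd45gip1 (0.71), Chchd1 (0.43) and Dap3 (0.21), while Ptcd3 differed by 0.04 and did not pass. Of 13 translation factors 4 were higher and 1 lower. The elongation factors Gfm1 (0.60), Tufm (0.56) and Tsfm (0.22) and the membrane insertase Oxa1l (0.34) were higher, and the release factor gene Mtrf1l was lower (-0.30, limma adjusted p = 0.0455). Of 21 genes that help assemble the ribosome 9 were higher and 2 lower, led by the GTPases Noa1 (0.67) and Mtg1 (0.56) and by Mpv17l2 (0.48), with Mterf3 at -0.50. Of 16 mitochondrial tRNA synthetases 1 was higher, Ears2 (0.54), and 1 lower, Fars2 (-0.24). That is 6.25% in each direction, below the 10.7% and 14.9% of all genes. Of 9 genes of mitochondrial DNA transcription and replication 3 were higher, the polymerase Polg (0.42), the helicase Twnk (0.30) and the RNA polymerase Polrmt (0.24), and 2 lower, Tfb2m (-0.42) and Mterf1a (-0.31).

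Of 10 nuclear regulators of mitochondrial genes 2 were higher and 2 lower, against 10.7% and 14.9% of all genes. Pprc1, a coactivator, was higher by 0.69 and Myc by 0.32. Gabpa, the DNA-binding subunit of GABP, was lower by a difference of -0.88 (limma adjusted p = 0.00034) and Yy1 by -0.61 (limma adjusted p = 5.15e-05), and Nrf1 differed by 0.10 and did not pass. In heterozygous blood the counts higher and lower for these 6 lists, in the same order, were 1 and 0, 2 and 2, 3 and 0, 0 and 1, 0 and 1, and 2 and 0. In homozygous against heterozygous blood they were 2 and 0, 2 and 0, 5 and 1, 1 and 0, 0 and 0, and 0 and 2. These lists are short, and they were not tested against the shares of all genes given above.

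**Figure D5:**
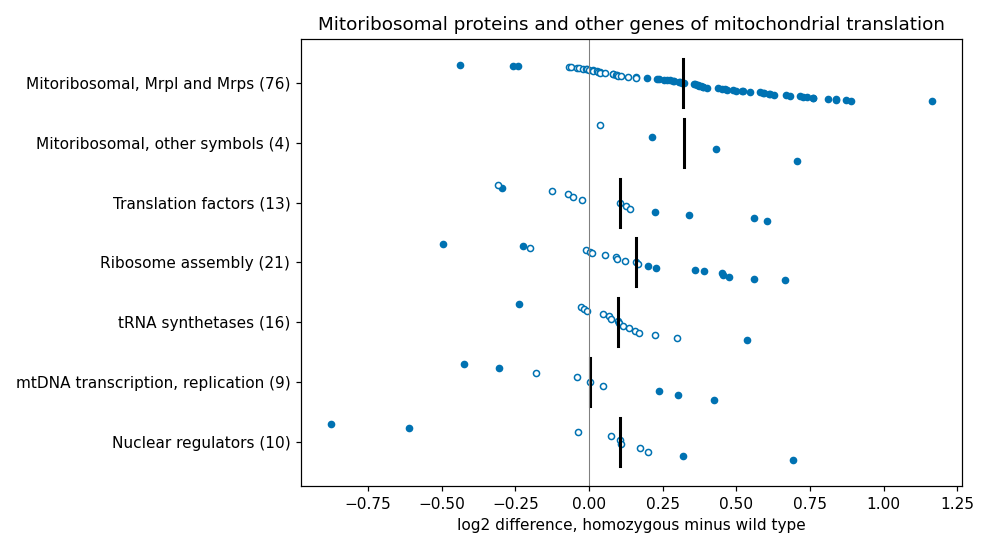
Points are the log2 differences, homozygous minus wild type (x axis), of the mitochondrial ribosomal proteins and of genes in 6 lists of mitochondrial translation and its regulators, filled where limma's adjusted p was under 0.05 and spread vertically for legibility, with the median of each list as a bar. The median is 0.32 for the Mrpl and Mrps genes and for the ribosomal proteins with other symbols, 0.16 for assembly and 0.00 for mitochondrial DNA transcription and replication.

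Many members share a short upstream region with a gene on the opposite strand. Another start lay within 500 bases upstream on that strand for 22 of 67 members (32.8%), against 14.5% of 14368 genes. Of the 22 partners 7 were higher and 0 lower in homozygous blood, against 10.7% and 14.9% of all genes. The pair of Mrpl46 and Mrps11, 42 bases apart, counts from both sides. Of 13 pairings in which the ribosomal protein gene was higher, 4 had a partner that was higher too. Mrpl49 (0.58) and Fau (0.23) were both higher, as were Mrps7 (0.76) and Gga3 (0.30), and Mrpl46 (0.28) and Mrps11 (0.20). Mrpl37 was higher by 0.71 while Cyb5rl, 128 bases away, differed by -0.00 and did not pass. Mrps12 was higher by 0.59 while Sars2, 147 bases away, differed by 0.17 and did not pass. Mrpl27 differed by -0.44 and was lower, while Eme1, 48 bases away, differed by -0.08 and did not pass. Conversely Mrpl47 differed by 0.01 while its neighbour Ndufb5, a respiratory chain subunit, was higher by 0.59. Tcp1 (0.50) was also higher beside Mrpl18 (-0.02), and Twnk (0.30) beside Mrpl43 (0.06), though neither member passed. Whether partners moved with members was not tested.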

How the data were processed

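RNA-STAT was the extraction reagent and biotin the label, per the labels' protocols. Partek 6.5, RMA and Affymetrix Expression Console 1.0 appear in the submitters' processing notes. The deposited table holds 45101 probe sets by 9 arrays, from 1.49 to 14.56, read here as log2 because RMA is named and the range fits it, as the labels give no scale from the authors. Array medians were 4.27 to 4.30. Without detection calls, signal over background is unknown.

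Genotypes came from the sample titles. After 64 control probe sets were removed, limma 3.58.1 (R 4.3.3) was fitted to 45037 probe sets of all 9 arrays with genotype as the factor. The 2-sided p-values were adjusted by Benjamini-Hochberg over all of them, with a threshold of 0.05, and the procedure was tested on simulated data. Genes were read from the probe set with the highest mean among those naming a single gene. The members, lists and rules were chosen with earlier results of these data known. Named members were up to 8 called ones with the largest change per comparison and direction, the 3 brightest per subunit, those whose symbol and structure differ, and those with an opposite second probe set. Mrps12, Mrpl11 and Mrpl44 and the head-to-head pairs were added after their values were seen. Summed marker signals are 2 to the power of the deposited log2 values. Promoter windows are RefSeq's (GRCm38.p6).

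The alternatives were a fit of the compared groups alone, a block for the replicate number, removal of the dimmest 40% of probe sets, an intensity trend, array weights, quantile and cyclic loess normalization, scaling to array medians or reference genes, adjustment over genes, the mean of all probe sets of a gene, leaving out _x_at and _s_at probe sets, subunits by structure, a threshold of 0.01, and leaving out each array. Figures were drawn with matplotlib 3.10.9.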

Additional observations from a re-analysis of the deposited data

How the results depend on the processing

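For the 29 named members, 1799 of 1908 recomputed values kept their side of the threshold, 65 lost the call and 43 gained it. The remaining 1 had been called and reversed its sign. Changes of sign between values that were not called, as for Mrpl57 and Mrpl47 in homozygous minus wild type, were not counted as reversals. Mrps21, homozygous minus wild type, reversed to 0.022 with the mean of all probe sets of a gene, where its dim second set enters. The same setting lowered several other named members by over 1.5 times, and most of these values are given beside each. Otherwise, homozygous minus heterozygous fell from 0.30 to 0.13 for Mrpl35, from 0.26 to 0.045 for Mrps14 and from 0.39 to 0.21 for Mrps26. Heterozygous minus wild type fell from 0.43 to 0.12 for Mrpl51. Calls were lost for Mrpl35, Mrps14 and Mrpl51 (limma adjusted p of 0.196, 0.58 and 0.24). With quantile normalization the medians of homozygous minus wild type were 0.40 for all members, 0.42 for the large and 0.39 for the small subunit, that of heterozygous minus wild type was 0.19 for the large subunit, and those of homozygous minus heterozygous were 0.20 for all and for the large subunit. With the mean of all probe sets the homozygous medians were 0.25, 0.25 and 0.23, the heterozygous ones 0.11, 0.12 and 0.11, and homozygous minus heterozygous 0.12 in the large subunit. Without _x_at and _s_at probe sets they were 0.36 for all and 0.40 for the small subunit in homozygous and 0.13 for all in heterozygous minus wild type. Members higher in homozygous than heterozygous blood numbered 41 with quantile normalization and 15 at 0.01. At 0.01, 1 member was lower in each mutant against wild type, and with quantile normalization 1 was lower in homozygous blood.

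Without 1 array, members higher numbered 44 to 48 (homozygous minus wild type), 20 to 34 (heterozygous minus wild type) and 19 to 26 (homozygous minus heterozygous), and members lower 1 to 3, 1 to 5 and 0. Without wild-type replicate 2 or homozygous replicate 2 or 3, 1 was lower in homozygous blood. Medians ranged from 0.11 to 0.18 for all and 0.11 to 0.19 for the large subunit in homozygous minus heterozygous, 0.29 to 0.36 for the large subunit in homozygous minus wild type, and 0.12 to 0.21 for the small subunit in heterozygous minus wild type. The causes were not tested.

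With the replicate number as a block, 48, 28 and 24 members were higher and 3, 3 and 0 lower, and Mrps22 lost its heterozygous call (limma adjusted p = 0.0548). Deviations of arrays of equal number correlated at -0.02 to 0.07 and those of other numbers at -0.06 to 0.03, so the numbers were not taken to pair the arrays. Precision is limited by 3 arrays a genotype and by unknown signal over background.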
